A study of Homo sapiens with 9 samples.

Results

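Distal regions are taken here as the regions of open chromatin on chr1 to chr22 whose centre lay 200 kb to 1 Mb from the nearest end of any protein-coding gene of GRCh38. The deposited table held 148797 regions. Of these, 145580 lay on the autosomes, and 21649 were distal (14.9% of the autosomal regions). Of the distal regions, 5272 lay inside the span of a protein-coding gene, which must be a very long one to hold them, and 16377 lay outside all such spans. They belonged to 384 host genes and to 727 intervals between neighbouring protein-coding genes. Enough counts for a test were present in 16043 of them, 4000 inside and 12043 outside gene spans, and the other 5606 were not tested.

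The regions were measured by ATAC-seq, in which the Tn5 transposase inserts sequencing adapters into accessible DNA, in SK-N-BE(2)c, an established neuroblastoma cell line with amplified MYCN. The 9 libraries came from cells collected 48 h after lipofection with 100 nM of an antisense oligonucleotide (ASO). In 3 libraries this was ASO2 and in 3 it was ASO10, both of which target NESPR, a long non-coding RNA. The other 3 received NCA, the negative control ASO. All groups therefore share 1 cell line, the transfection and the dose, and the assay does not measure the level of NESPR RNA itself. The labels do not say that the libraries of a group came from separate cultures, so p-values here measure the spread between these libraries, which may be technical.

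As background, open chromatin far from genes often marks enhancers, short stretches of DNA bound by transcription factors that act on a promoter over a long distance by looping. Intervals that hold few or no genes, called gene deserts, are frequent around developmental regulators, and many of the longest human genes encode adhesion molecules and receptors of neurons. In neuroblastoma, the adrenergic cell state is held by a circuit of transcription factors, among them HAND2, GATA3 and ISL1, which act through such distal elements. Several very long genes also lie at common fragile sites, stretches that break readily when replication is slowed.

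Most distal regions carry no annotated transcript start, but 179 of the tested ones overlapped the promoter window of a RefSeq gene, taken as 250 bases before to 50 bases after its start. Of these regions, 12 were called higher or lower in a comparison below. The promoters of some of them, chosen after their values were seen, are shown here. They are given in RefSeq's GRCh38.p14 sequence, 5′ to 3′ on the gene's strand. Capitals mark the motif letters that were searched on both strands, the CCAAT box, the letters TATAAA of the TATA box, TGANTCA for AP-1, AGATAA for GATA factors and a motif of paired TAAT cores. No searched motif overlaps another in the sequences shown. LINC01701 lies at chr1:189775219-189775518 on the plus strand, between PLA2G4A and BRINP3. PCGEM1 lies at chr2:192749595-192749894 on the plus strand, between TMEFF2 and SLC39A10. LOC101929551 lies at chr2:7899606-7899905 on the minus strand, between RNF144A and ID2. CAMTA1-AS2 lies at chr1:7389705-7390004 on the minus strand, inside CAMTA1. The TENM3 start of the RefSeq table lies at chr4:182448766-182449065 on the plus strand, inside the span of that gene.
LINC01701: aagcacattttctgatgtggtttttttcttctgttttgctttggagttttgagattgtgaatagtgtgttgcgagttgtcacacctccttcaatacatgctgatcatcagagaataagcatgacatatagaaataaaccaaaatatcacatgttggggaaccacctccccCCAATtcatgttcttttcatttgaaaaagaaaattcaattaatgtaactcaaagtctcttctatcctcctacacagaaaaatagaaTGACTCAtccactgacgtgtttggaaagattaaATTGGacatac
PCGEM1: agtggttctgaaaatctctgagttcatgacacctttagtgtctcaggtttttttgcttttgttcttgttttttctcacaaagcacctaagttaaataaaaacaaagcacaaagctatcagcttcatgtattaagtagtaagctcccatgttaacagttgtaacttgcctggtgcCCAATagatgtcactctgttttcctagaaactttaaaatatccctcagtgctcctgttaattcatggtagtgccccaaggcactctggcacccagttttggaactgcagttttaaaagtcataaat
LOC101929551: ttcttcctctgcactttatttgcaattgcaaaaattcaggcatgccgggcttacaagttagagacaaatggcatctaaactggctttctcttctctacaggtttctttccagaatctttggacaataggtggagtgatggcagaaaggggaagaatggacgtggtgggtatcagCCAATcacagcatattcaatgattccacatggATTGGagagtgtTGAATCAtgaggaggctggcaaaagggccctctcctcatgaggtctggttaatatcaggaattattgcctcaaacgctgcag
CAMTA1-AS2: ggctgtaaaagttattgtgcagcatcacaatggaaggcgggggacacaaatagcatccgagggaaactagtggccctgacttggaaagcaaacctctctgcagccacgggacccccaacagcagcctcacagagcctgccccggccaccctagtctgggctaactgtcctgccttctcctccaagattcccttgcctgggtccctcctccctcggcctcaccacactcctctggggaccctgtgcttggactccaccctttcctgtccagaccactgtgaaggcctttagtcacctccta
TENM3: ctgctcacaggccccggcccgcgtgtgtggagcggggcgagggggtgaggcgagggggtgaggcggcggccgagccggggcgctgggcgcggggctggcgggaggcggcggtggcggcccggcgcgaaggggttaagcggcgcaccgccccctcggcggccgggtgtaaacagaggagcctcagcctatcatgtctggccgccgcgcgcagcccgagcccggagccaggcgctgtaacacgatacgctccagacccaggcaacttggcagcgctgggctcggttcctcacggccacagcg

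The LINC01701 and LOC101929551 windows each hold 2 CCAAT boxes and 1 AP-1 motif, and the PCGEM1 window holds 1 CCAAT box. The CAMTA1-AS2 and TENM3 windows hold none of the 5 motifs. Of 35116 RefSeq promoter windows, 34.6% hold CCAAT, 7.71% TGANTCA, 11.5% TATAAA, 10.3% AGATAA and 0.365% the paired TAAT motif, so a match describes the letters only. The GC content of the 5 windows ran from 35.3% in LINC01701 to 75.7% in TENM3. Over all promoters that overlapped a tested distal region the median GC content was 52.3%, against 58.7% for all promoters of the table.

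The distal regions also overlapped a few microRNA hairpins. Those of 2 microRNAs whose regions were called in a comparison are described with the results, and their mature sequences are shown with the seed, bases 2 to 8, in capitals. The hairpin of miR-4490 lies at chr11:90555774-90555857 on the minus strand, between CHORDC1 and FAT3. The hairpins of MIR6724-2 and MIR6724-4, at chr21:8249505-8249596 and chr21:8432530-8432621 on the plus strand, have 1 sequence of 92 bases between them and lie in the stretch of ribosomal RNA genes described below. The region over MIR10396A (chr21:8986737-8988698), in the same interval of chromosome 21, was also called, lower under ASO2 than under ASO10 by -0.43 ± 0.09 on the log2 scale (edgeR adjusted p = 0.000571), though not with loess offsets (0.204).
hsa-miR-4490: uCUGGUAAgagauuugggcaua
hsa-miR-6724-5p: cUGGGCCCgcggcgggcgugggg

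The libraries held 7293565 to 10948569 counts each. Of 12 adrenergic marker genes, 11 had a region no more than 1 kb from an end (TH had no region), as had 7 of 9 mesenchymal ones and 4 of 12 markers of other tissues (APOA1, PTPRC, CDX2 and PECAM1), with NCA means of at most 8.31 CPM (counts scaled to library size) for the last group and up to 51.7 CPM, at STMN2, for the first. A small number of distal regions held most of the distal counts. The 117 with a mean over 100 CPM held 53.2% of them, and the 53 in the amplified stretch around MYCN (chr2:15900000-16500000, where the count density was 79.3-fold that of the chromosome's median) held 27.0%. A further 38 regions lay in a stretch of ribosomal RNA (rRNA) genes on chromosome 21 and held 3.87%.

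Under ASO2, most calls among distal regions were gains, though most distal regions were not called. Of the 16043 tested distal regions, 1709 (10.7%) were higher under ASO2 than under NCA and 112 (0.698%) were lower. These calls rest on the quasi-likelihood test of edgeR, with p-values adjusted after Benjamini and Hochberg over all 119417 tested regions and a threshold of 0.05. Over all tested regions the shares were 4.79% higher and 0.808% lower. Inside gene spans 480 of 4000 were higher (12%) and 32 lower, and outside 1229 of 12043 were higher (10.2%) and 80 lower. The median log2 fold change of all tested distal regions was 0.12, against -0.02 for all tested regions. Without ASO2 replicate 2, 1064 distal regions were called higher (5.93% of a larger tested set), and without NCA replicate 1 or 2 the shares were 6.77% and 6.88%. The lower calls numbered 65, 66 and 68 without ASO2 replicate 1, ASO2 replicate 2 and NCA replicate 3.

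The mean level of the gained regions over all 9 libraries had a median of 2.58 log2 CPM, against 1.32 log2 CPM for all 16043. This mean includes the ASO2 libraries, and weak regions are seldom called (1.54% under 1 log2 CPM). The difference is thus partly set by the measure and the test. A distal region called higher under ASO2 had a median level of 3.72 CPM under NCA and 8.36 CPM under ASO2. The median log2 fold change of these 1709 regions was 1.15, and in 1090 of them (63.8%) it was over 1. Their median width was 759 bases and their median distance from a gene end 402 kb. Inside and outside gene spans the regions behaved alike in level, with NCA medians of 3.75 and 3.70 CPM and ASO2 medians of 8.46 and 8.33 CPM.

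ASO10 changed far fewer distal regions. Under ASO10, 264 distal regions were higher than under NCA (1.65%) and 34 were lower (0.212%), against 0.876% and 0.21% of all tested regions. Inside gene spans 65 were higher and 11 lower, and outside 199 were higher and 23 lower. The regions called higher had medians of 7.46 CPM under NCA and 13.2 CPM under ASO10, and a median log2 fold change of 0.83. With offsets fitted to abundance in each library (loess), the calls were 218 higher and 63 lower, so that 77.6% of the calls were higher in place of 88.6%. Fewer gains were called when 1 library of the comparison was left out: 120, 132 and 171 without NCA replicates 1, 2 and 3, and 98, 181 and 115 without ASO10 replicates 1, 2 and 3. The lower calls numbered between 11, without ASO10 replicate 1, and 37, without ASO2 replicate 3. Both ASOs were compared with the same NCA libraries, so their calls share an error and are given side by side.

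The ASOs were also compared directly. With ASO2, 764 distal regions were higher than with ASO10 (4.76%) and 47 were lower (0.293%), against 2.54% and 0.682% of all tested regions. The 764 had medians of 8.43 CPM under ASO2 and 3.86 CPM under ASO10. Inside gene spans 207 were higher and 5 lower under ASO2, and outside 557 were higher and 42 lower. Of the 42, 15 lay in the interval on chromosome 21 that holds the rRNA genes. Without ASO2 replicate 1 or 2 the higher calls fell to 491 and 389, and without ASO10 replicate 1, 2 or 3 to 496, 408 and 457. The lower calls numbered 27, 29 and 29 without ASO10 replicates 1, 2 and 3.

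The share of regions gained under ASO2 increased with distance from genes up to 1 Mb. It was 0.580% within 1 kb of a gene end, 2.40% at 1 to 10 kb, 3.88% at 10 to 50 kb and 6.2% at 50 to 200 kb. Among the distal regions it was 8.91% at 200 to 250 kb, 9.53% at 250 to 300 kb, 9.44% at 300 to 400 kb, 11.7% at 400 to 600 kb, 12.9% at 600 to 800 kb and 14.3% at 800 kb to 1 Mb. Beyond 1 Mb it was 5.32%. Losses under ASO2 had no such order, at 0.969% within 1 kb, 0.861% at 200 to 250 kb, 1.03% at 300 to 400 kb and 0.334% at 800 kb to 1 Mb. Under ASO10 the share called higher was 2.08% within 1 kb, 0.506% and 0.453% in the next bins, and between 1.36% and 2.21% in the distal bins. The pattern near genes thus differed between the ASOs: within 1 kb, 388 of 13106 regions were lower under ASO2 than under ASO10 and 48 were higher.

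**Figure D1:**
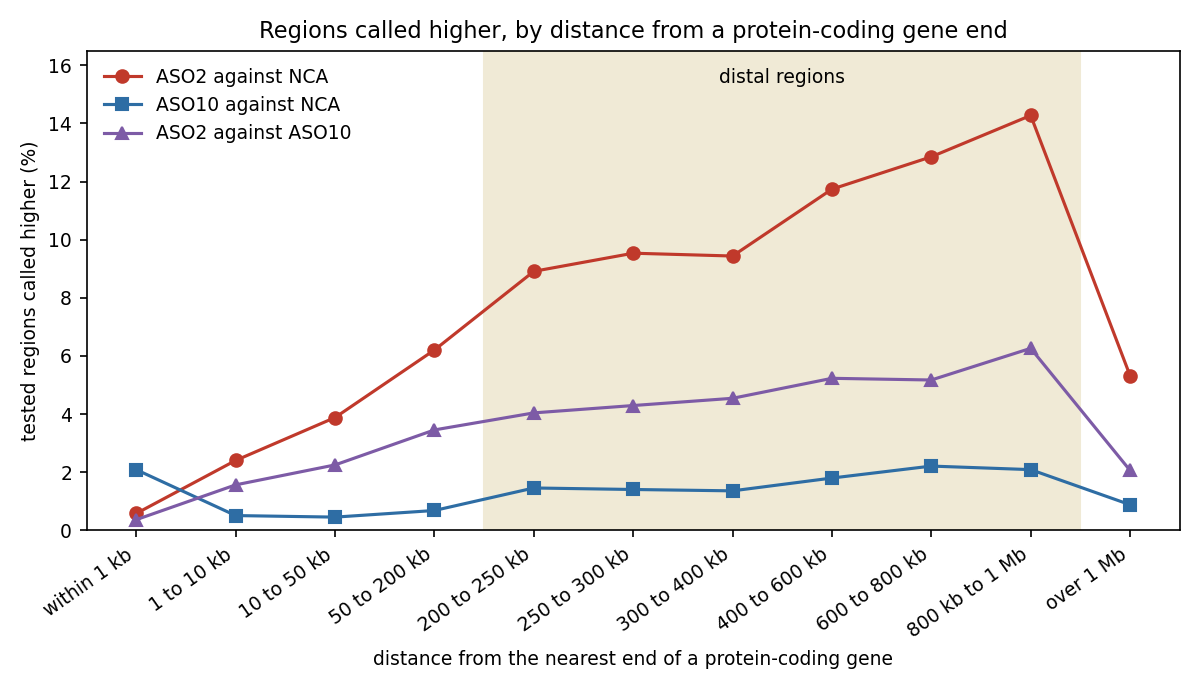
Share of tested regions called higher (%, y axis) in 11 bins of distance from the nearest protein-coding gene end (x axis), for ASO2 against NCA (red circles), ASO10 against NCA (blue squares) and ASO2 against ASO10 (purple triangles), with the distal bins shaded. The red line climbs from 0.580% within 1 kb to 14.3% at 800 kb to 1 Mb and drops to 5.32% beyond 1 Mb.

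No step was seen at either bound of the distance range. In the 20 kb below the lower bound 7.16% of regions were higher under ASO2, against 9.26% in the 20 kb above it, and the shares were 14.5% in the last 100 kb below 1 Mb and 12.7% in the first 100 kb above it. The tested regions nearest to the lower bound lay between TMEM229A and SSU72L6 (200.009 kb, log2 fold change under ASO2 -0.40) and, just outside it, in PLCB4 (199.971 kb, -0.40). At the upper bound they lay between ZNF337 and LOC124904970 (999.958 kb, 0.29) and between LOC101060588 and LOC124903442 (1000.09 kb, 0.09). None of these 4 was called.

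The power of the test depends on counts, so distal regions were also set beside other autosomal regions of the same mean level. Between 2 and 3 log2 CPM, 22.6% of 2736 distal regions were higher under ASO2, against 8.02% of 17328 others. Between 3 and 4 log2 CPM the shares were 30.0% and 9.42%, and between 4 and 6 log2 CPM 28.6% and 4.5%. Under 1 log2 CPM they were 1.54% and 0.491%. At each of these levels the share was thus higher among distal regions, with regions inside and outside gene spans close together (30.8% and 29.7% between 3 and 4 log2 CPM). For ASO10 the shares between 4 and 6 log2 CPM were 12.8% of distal and 4.27% of other regions. Above 6 log2 CPM the picture differed: of 144 distal regions, 143 of them outside gene spans, 2 were higher and 4 lower under ASO2, and 8.33% had a log2 fold change above 0. The base composition of the regions was not tested, since no genome sequence was used here.

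**Figure D2:**
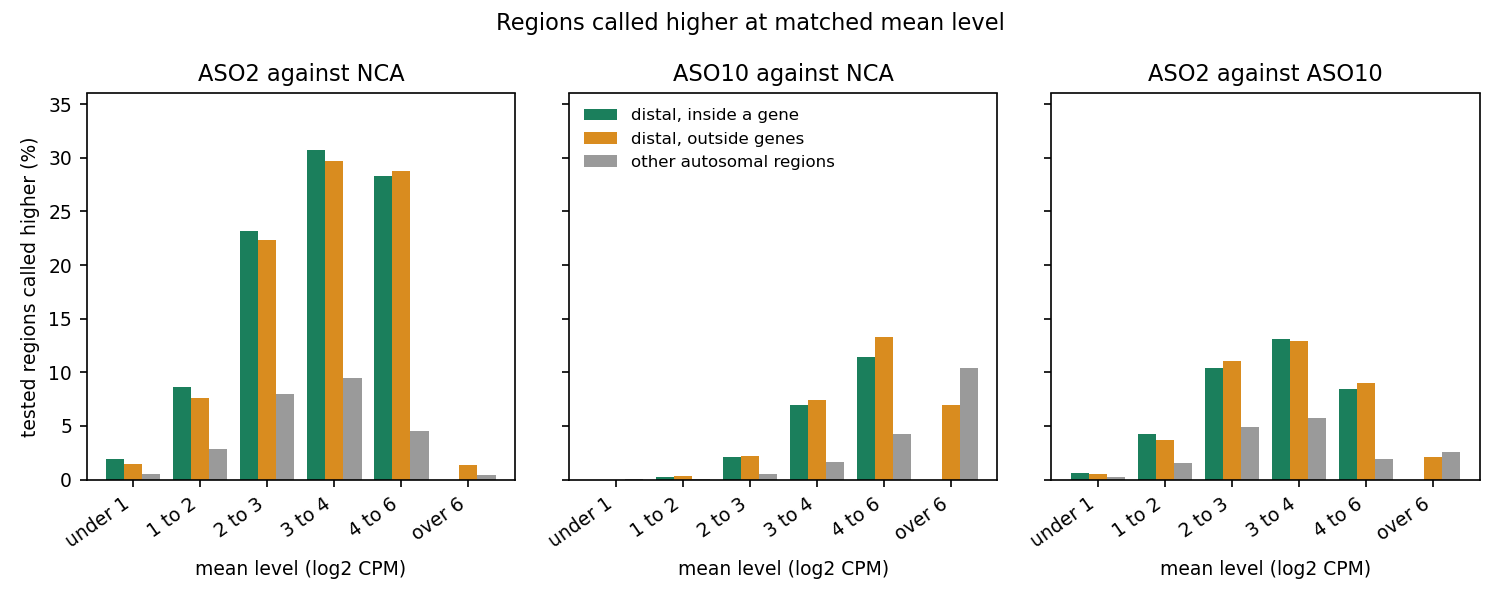
Share of tested regions called higher (%, y axis) in bins of mean level (log2 CPM, x axis) for distal regions inside gene spans (green), distal regions outside (orange) and other autosomal regions (grey), in 1 panel per comparison. Bars for under 20 regions are not drawn. Between 3 and 4 log2 CPM the distal bars stand at 30.8% and 29.7% under ASO2 and the grey bar at 9.42%.

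The gain was visible in the raw share of counts. Distal regions inside genes held 1.68%, 1.65% and 1.72% of all counts in the 3 NCA libraries, 1.94%, 1.99% and 1.98% in the ASO2 libraries, and 1.76%, 1.71% and 1.68% in the ASO10 libraries. The ASO2 libraries lay above the rest, and those of ASO10 overlapped with NCA. For distal regions outside genes the means were 13.3% ± 0.377 (SD, n = 3) under NCA, 13.3% ± 0.504 under ASO2 and 13.4% ± 0.143 under ASO10, with overlapping groups. Once the high-count, amplified and rRNA regions were left out, a choice made after seeing the data, these shares were 4.94% ± 0.0723, 5.62% ± 0.0706 and 4.99% ± 0.0696, and the ASO2 libraries again lay above all others. No p is given for these sums, because the distance range was chosen with results of these data known.

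The share of gains varied by chromosome, among distal and other regions. Under ASO2 the share called higher was 24.3% of 148 tested on chromosome 18, 20.8% of 936 on chromosome 4, 15.8% on chromosome 6, 15.7% on chromosome 13 and 14.5% on chromosome 3. It was 4.05% of 766 on chromosome 20 and 2.17% of 46 on chromosome 19. Other autosomal regions also had their highest shares on chromosomes 4 (9.05%) and 18 (8.39%), and their lowest on chromosome 19 (0.689%). For them chromosome 20 had 2.27%, above chromosomes 22 (0.749%), 16 (1.20%) and 17 (1.63%). Under ASO10, chromosomes 4 and 6 had 3.85% and 3.34%. Chromosome 21 had 3.30%, where the rRNA interval gave 10 of its 13 gains.

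The gains were spread over many loci. Under ASO2, 150 of 369 tested host genes and 293 of 694 tested intervals held at least 1 distal gain, and 221 loci held 3 or more. The 10 leading loci together held 169 of the 1709 gains (9.89%). Under ASO10, 49 host genes and 121 intervals held a gain, and 20 loci held 3 or more. The loci named next were ranked by these calls and are described with no further test. Their levels come from the same libraries as the ranking. A separation of the ASO libraries from NCA in these loci or their leading regions therefore follows in part from the choice.

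Among host genes, ROBO2, which encodes an axon guidance receptor for SLIT ligands, held the most ASO2 gains, 21 of 72 tested distal regions (13 without ASO2 replicate 2). The summed level of its distal regions was 340, 309 and 345 CPM in the NCA libraries, 472, 504 and 461 CPM under ASO2, and 402, 383 and 396 CPM under ASO10. The 3 groups did not overlap, with ASO10 between the others. The region with the smallest p, at chr3:76561044-76562102 and 655 kb from the end of ROBO2, had 6.31, 5.30 and 6.81 CPM under NCA, 16.6, 18 and 17.5 CPM under ASO2, and 8.44, 7.05 and 8.07 CPM under ASO10. It was higher under ASO2 by 1.5 ± 0.20 (log2 fold change and SE; edgeR, adjusted p = 9.5e-11). Another ROBO2 region, at chr3:76643489-76644793, had one of the clearest gains under ASO10, with 12.1, 12.1 and 12.9 CPM under NCA, 27.2, 20.6 and 28.8 CPM under ASO10 and 19.8, 21.4 and 16.4 CPM under ASO2 (log2 fold change 1.04 ± 0.16, edgeR adjusted p = 2.3e-07 for ASO10).

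MACROD2, a mono-ADP-ribose hydrolase gene at a fragile site, held 17 gains among 99 tested regions under ASO2 and 1 under ASO10. Its summed level was 352, 359 and 353 CPM under NCA, 484, 488 and 458 CPM under ASO2 and 402, 386 and 385 CPM under ASO10. The groups did not overlap. Its leading region, chr20:15772791-15773749, was the distal region inside a gene with the smallest p under ASO2. It had 8.89, 7.31 and 9.30 CPM under NCA, 20.3, 27.5 and 26.0 CPM under ASO2 and 16.2, 14.8 and 17.4 CPM under ASO10. This region rose under both ASOs (1.54 ± 0.17, edgeR adjusted p = 4.1e-16, and 0.92 ± 0.17, 0.000155), and more under ASO2 (0.62 ± 0.15 between the ASOs, 0.00522). The last call was lost without ASO2 replicate 2 or ASO10 replicate 2 (edgeR adjusted p up to 0.0787).

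CADM2, which encodes a synaptic immunoglobulin-type adhesion molecule, had the densest gains of the 6 leading host genes, 15 of 34 tested regions under ASO2 (44.1%) and 3 under ASO10. All 34 tested regions, called or not, lay between 85 and 86 Mb of chromosome 3. Summed over the locus, NCA libraries had 154, 148 and 150 CPM, ASO2 libraries 242, 284 and 235 CPM, and ASO10 libraries 208, 189 and 211 CPM. Again the groups were separate, with ASO10 in between. Its leading region, chr3:85664524-85665589, had 3.35, 3.53 and 2.50 CPM under NCA, 10.1, 12.4 and 10.1 CPM under ASO2 and 4.69, 3.87 and 4.69 CPM under ASO10 (1.80 ± 0.26 for ASO2, edgeR adjusted p = 5.2e-09).

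The next host genes were NAALADL2, related to glutamate carboxypeptidase, with 12 of 39, GALNTL6, a glycosyltransferase-like gene, with 10 of 23, and PCDH15, a protocadherin of sensory hair cells, with 9 of 24. Without ASO2 replicate 2 the count was 7 in NAALADL2. In PCDH15 it was 3 to 5 without NCA replicate 1 or 2 or any 1 ASO2 library. The leading GALNTL6 region, chr4:172311416-172311839, was among the weakest, with at most 9 counts in an NCA library. It had 1.16, 0.252 and 0.454 CPM under NCA, 5.61, 5.58 and 3.58 CPM under ASO2, and 1.29, 0.455 and 1.69 CPM under ASO10 (2.96 ± 0.52 for ASO2, edgeR adjusted p = 2.8e-06). The leading PCDH15 region, chr10:54585326-54586019, rose under both ASOs, from a mean of 4.49 ± 0.528 CPM (SD, n = 3) under NCA to 12.2 ± 1.20 under ASO2 and 9.47 ± 1.85 under ASO10. The ASO10 call there was lost without ASO10 replicate 3 (edgeR adjusted p = 0.0532).

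Under ASO10, the host genes with most gains were CADM2, AGBL4, which encodes a tubulin deglutamylase, and EYS, a photoreceptor matrix gene, with 3 each. These counts are small. That of AGBL4 was 0 or 1 without any 1 NCA library or without ASO10 replicate 1 or 3, and that of EYS 0 or 1 without NCA replicate 1 or 2 or ASO10 replicate 1 or 3. The leading EYS region, chr6:64815011-64816357, had 12, 11.7 and 13.2 CPM under NCA, 23.3, 17.6 and 20.1 CPM under ASO10 and 17.8, 16.8 and 15.0 CPM under ASO2 (0.72 ± 0.16 for ASO10, edgeR adjusted p = 0.00306, and 0.42 ± 0.16 for ASO2, 0.117). All 6 ASO libraries of this region lay above NCA, though only the ASO10 difference was called, and not without ASO10 replicate 1 (edgeR adjusted p = 0.121).

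**Figure D3:**
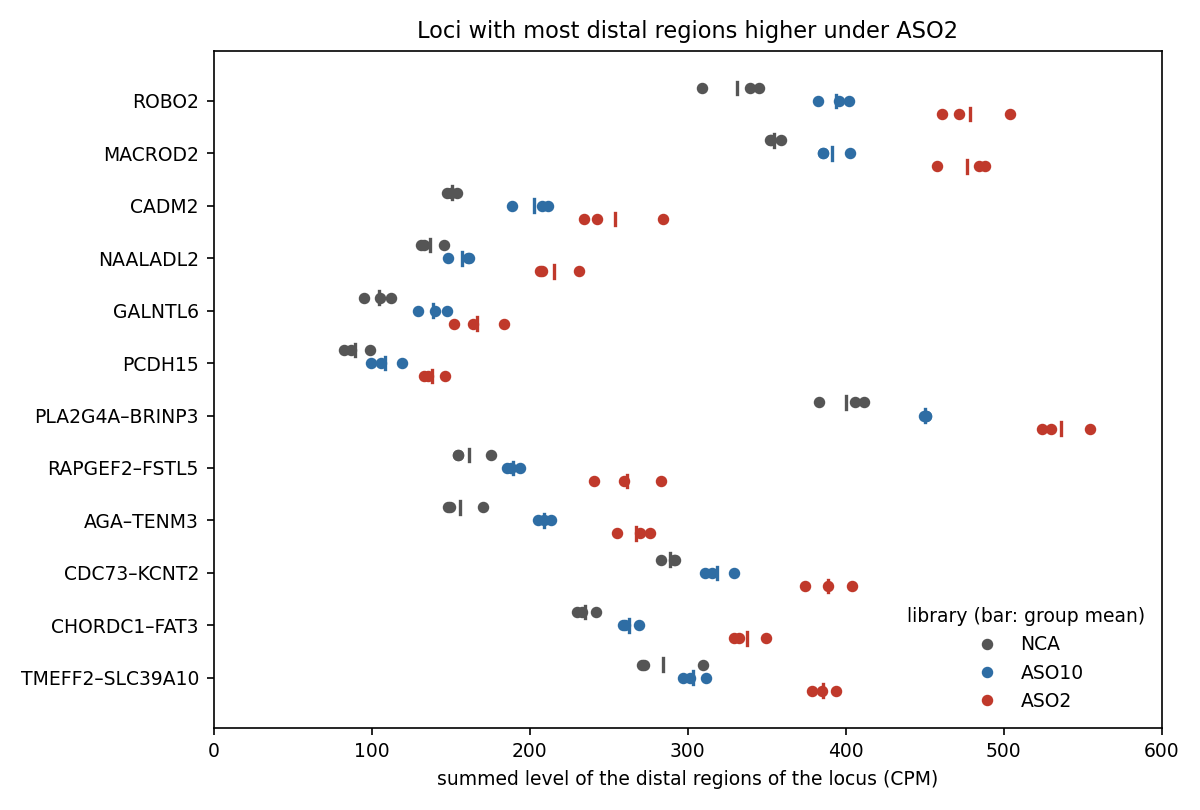
Summed level (CPM, x axis) of the distal regions of the 6 host genes and 6 intervals with most ASO2 gains, 1 point per library and a bar at each group mean, for NCA (grey), ASO10 (blue) and ASO2 (red). In each of the 12 loci the ASO2 points lie above all NCA and ASO10 points, as in CADM2 with 235 to 284 CPM against at most 154 CPM under NCA. The loci were chosen by ASO2 gains in these same libraries, so this separation follows in part from the choice.

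Outside genes, the interval between PLA2G4A, the cytosolic phospholipase A2 gene, and BRINP3, a gene of the nervous system, held the most ASO2 gains, 19 of 108 tested regions (12 without ASO2 replicate 2). Its summed level was 383, 406 and 411 CPM under NCA, 524, 555 and 530 CPM under ASO2, and 451, 450 and 451 CPM under ASO10. The groups did not overlap. Its leading region, chr1:187404429-187405115, had 1.93, 2.77 and 1.13 CPM under NCA, 9.54, 7.08 and 7.25 CPM under ASO2, and 2.35, 3.07 and 1.95 CPM under ASO10 (2.03 ± 0.34 for ASO2, edgeR adjusted p = 4.1e-07).

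On chromosome 4, 2 intervals had gains in more than 4 in 10 tested regions. Between RAPGEF2, a Rap exchange factor gene, and FSTL5, a follistatin-like gene, 18 of 38 were higher under ASO2. Between AGA, a lysosomal hydrolase gene, and TENM3, a teneurin adhesion gene, 17 of 38 were (11 without NCA replicate 2), and 37 of the 38 had a log2 fold change above 0. The summed levels of the latter interval were 149, 149 and 170 CPM under NCA, 270, 276 and 255 CPM under ASO2, and 213, 206 and 209 CPM under ASO10, without overlap. Its leading region, chr4:178295181-178295808, lay 853 kb from AGA and had 2.19, 5.17 and 3.86 CPM under NCA, 11.5, 15.7 and 11.8 CPM under ASO2 and 5.51, 5.01 and 7.03 CPM under ASO10 (1.79 ± 0.24 for ASO2, edgeR adjusted p = 1e-10).

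The other leading intervals were CDC73 to KCNT2 (17 of 108), CHORDC1 to FAT3 (16 of 59, with 1 lower) and TMEFF2 to SLC39A10 (15 of 77, with 2 lower). CDC73 encodes a subunit of the Paf1 complex, KCNT2 a potassium channel, CHORDC1 an HSP90 cochaperone, FAT3 an atypical cadherin and SLC39A10 a zinc transporter. The count was 10 in the first of these without NCA replicate 1 or ASO2 replicate 1, and 8 or 9 in the second without NCA replicate 1, ASO2 replicate 1 or ASO2 replicate 2. In the last it was 8 without NCA replicate 1 and 9 without ASO2 replicate 2, and its 2 lower calls were lost without NCA replicate 3 or ASO2 replicate 1 or 2. The leading region between TMEFF2 and SLC39A10, chr2:192996810-192997490, had 1.29, 0.378 and 1.82 CPM under NCA, 7.72, 6.65 and 6.88 CPM under ASO2 and 2.70, 1.82 and 2.21 CPM under ASO10 (2.57 ± 0.39 for ASO2, edgeR adjusted p = 1.3e-08). All ASO2 libraries lay above all others there.

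Under ASO10 the leading intervals outside the rRNA stretch were LSAMP to IGSF11, a pair of immunoglobulin-type adhesion genes, with 6 of 72, and ROBO1 to GBE1, a guidance receptor and a glycogen branching enzyme gene, with 6 of 44. Both counts were 2 or 3 without ASO10 replicate 1 or 3, and the latter also without NCA replicate 2 or 3. The same intervals held 14 and 10 gains under ASO2, the former 9 without NCA replicate 2 or 3 or ASO2 replicate 1, and 7 without ASO2 replicate 2. At chr3:118402848-118403944, between LSAMP and IGSF11, the levels were 9.15, 4.29 and 11.7 CPM under NCA, 18.7, 19.6 and 16.4 CPM under ASO10 and 20.8, 23.1 and 16.6 CPM under ASO2. This region rose under both (1.11 ± 0.17 for ASO10, edgeR adjusted p = 7.9e-07, and 1.25 ± 0.17 for ASO2, 2.7e-10), and the ASO libraries overlapped with each other.

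**Figure D4:**
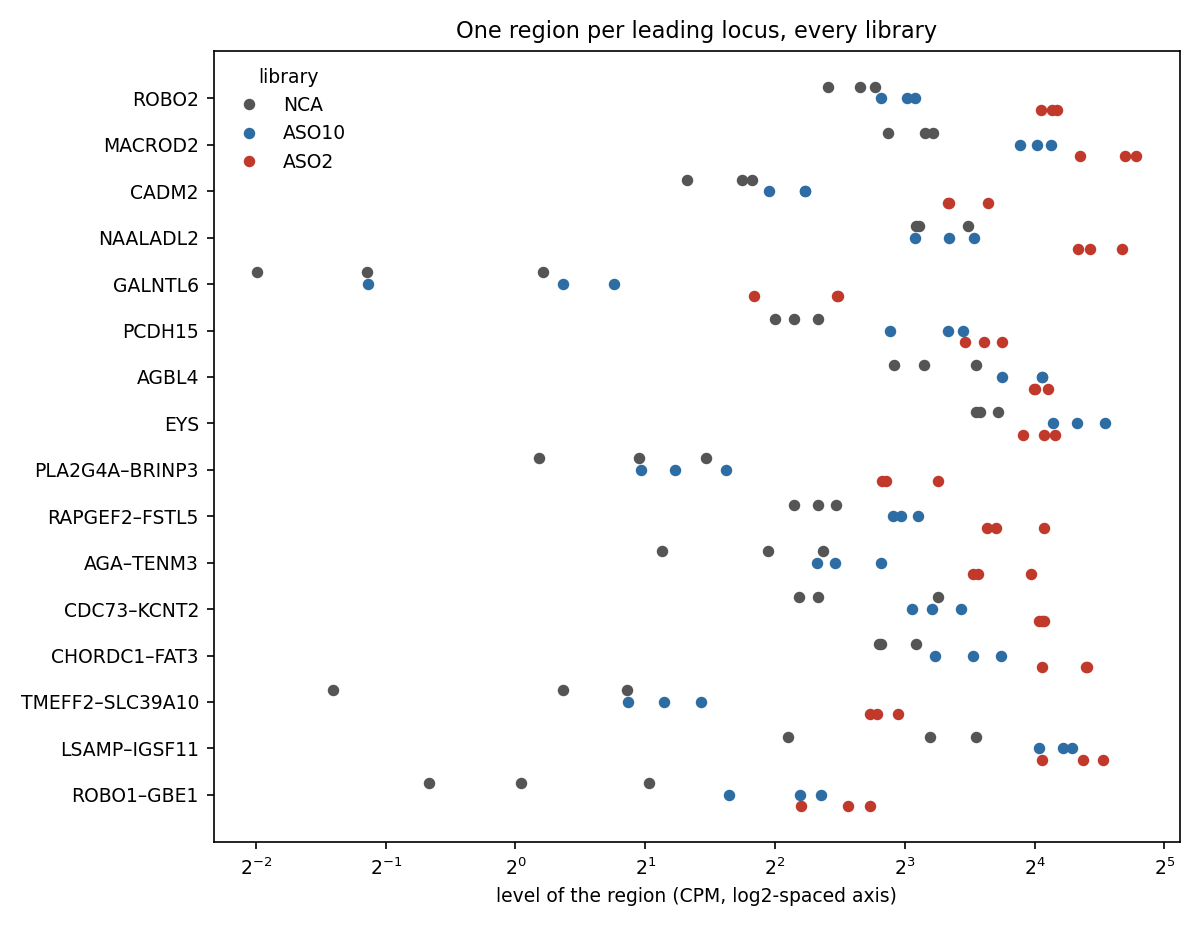
Level of the region with the smallest p among the gains of each leading locus (CPM on a log2-spaced x axis), 1 point per library, for NCA (grey), ASO10 (blue) and ASO2 (red). At CADM2 the ASO2 points lie at 10.1 to 12.4 CPM and the NCA points at 2.50 to 3.53 CPM, while at EYS and LSAMP–IGSF11 the red and blue points are close together.

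Single regions with the smallest p showed 3 kinds of pattern. In the first, ASO2 and ASO10 both gained. The region at chr3:148245544-148247018, between ZIC1, a neural crest transcription factor gene, and AGTR1, an angiotensin receptor gene, had the smallest p of all distal gains under ASO10. It had 24.3, 15.9 and 16.0 CPM under NCA, 42.5, 47.9 and 39.5 CPM under ASO2, and 39.9, 33.7 and 39.1 CPM under ASO10. The log2 fold changes were 1.21 ± 0.13 for ASO2 (edgeR adjusted p = 4.1e-16) and 1.00 ± 0.13 for ASO10 (8.9e-10), with no call between the ASOs (0.21 ± 0.12, 0.453). A SLIT3 region at chr5:168897860-168898940, in the gene of a ROBO ligand, behaved the same way, with means of 6.93 ± 2.15, 17.0 ± 2.05 and 17.1 ± 0.507 CPM (SD, n = 3) under NCA, ASO2 and ASO10. A region between KHDRBS3 and FAM135B on chromosome 8 rose from 9.78 ± 0.829 to 22.3 ± 3.0 and 20.4 ± 3.29 CPM in the same order.

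In the second pattern the gain was clear under ASO2, and the ASO10 mean lay between NCA and ASO2 without always being called. The region with the smallest p of all distal regions under ASO2 lay at chr1:208984780-208986205, between PLXNA2, a semaphorin receptor gene, and CAMK1G, a kinase gene. It had 8.89, 6.30 and 8.40 CPM under NCA, 24.3, 29.4 and 21.4 CPM under ASO2, and 12, 13.1 and 11.2 CPM under ASO10. The groups did not overlap, and ASO2 exceeded ASO10 by 1.05 ± 0.16 (edgeR adjusted p = 1.3e-07). ASO10 against NCA was not called there (0.62 ± 0.18, edgeR adjusted p = 0.0567). At chr2:13879314-13880786, between TRIB2 and LRATD1, the means were 7.47 ± 0.654, 23.2 ± 1.94 and 12.9 ± 0.807 CPM (SD, n = 3), with all 3 comparisons called. The call under ASO10 was lost without NCA replicate 2 or ASO10 replicate 1 (edgeR adjusted p up to 0.0677). Regions in ESRRG, an orphan nuclear receptor gene (chr1:216737246-216738319), and GPC5, a glypican gene (chr13:92024186-92025726), rose under ASO2 by 1.67 ± 0.21 and 1.22 ± 0.16 (edgeR adjusted p = 3.2e-12 and 3.9e-11). At ESRRG the ASO10 libraries overlapped with NCA and were not called (0.42 ± 0.23, 0.516). At GPC5 the ASO10 call (0.58 ± 0.17, 0.0468) was lost under 15 alternatives. The GPC5 difference between the ASOs (0.64 ± 0.15, 0.00259) was not called without ASO2 replicate 2 or ASO10 replicate 3.

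In the third pattern the gain was present under ASO2 while the ASO10 level lay at or below NCA. The direct comparison was led by regions of this kind in NEGR1 (chr1:71804211-71805142) and CNTNAP2 (chr7:147078085-147078944), both neural adhesion genes, and between AGBL1 and the neurotrophin receptor gene NTRK3 (chr15:87500006-87500762). The NTRK3 region had 4.38, 5.04 and 4.88 CPM under NCA, 11.9, 13.6 and 11.8 CPM under ASO2 and 4.22, 3.19 and 2.34 CPM under ASO10. ASO2 exceeded ASO10 there by 1.93 ± 0.25 (edgeR adjusted p = 9.5e-11), while ASO10 against NCA was not called (-0.54 ± 0.28, 0.47). At ARHGAP24 (chr4:85774057-85774786), ASO10 and NCA overlapped at 6.39 ± 0.495 and 6.95 ± 0.325 CPM (SD, n = 3), and ASO2 reached 17.3 ± 1.21 CPM.

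The lists of host genes, drawn up with earlier results of these data known, were compared by their counts. Of 51 adhesion and guidance genes, 45 held a tested distal region, and 128 of their 944 regions were higher under ASO2 (13.6%) and 9 lower, in 26 and 7 genes. The share higher was 12% for all distal regions inside gene spans, 10.7% for all distal regions and 4.79% for all tested regions, and the difference was not tested. The median log2 fold change of the list was 0.20, against 0.12 for all tested distal regions. ROBO2 (21 of 72) and CADM2 (15 of 34), named above because of these same calls, are on this list. Beside them, ROBO1 held 9 of 35 and CNTNAP2 9 of 79. CDH18, a cadherin gene, held 6 of 17, and NRG3, a neuregulin gene, 6 of 25. Members without a gain included OPCML (0 of 37 higher, 1 lower), PTPRT (0 of 39) and CSMD1 (0 of 17), with median log2 fold changes of -0.08, -0.12 and -0.27. Without ASO2 replicate 2 the list had 77 gains, and its losses numbered 2 without NCA replicate 3 and 4 without ASO2 replicate 1. Under ASO10 22 of the 944 were higher (2.33%) and 1 lower (12 higher without NCA replicate 2 or ASO10 replicate 1, and 14 without ASO10 replicate 3). The share higher under ASO10 was 1.625% for distal regions inside gene spans and 0.876% for all tested regions.

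Receptor and channel genes had a share near that of all distal regions. Of 37 genes, 25 held a tested region, and 37 of 328 regions were higher under ASO2 (11.3%, 21 without NCA replicate 1). In edgeR 0 were lower, 19 at an unadjusted p under 0.05, and DESeq2 and limma-voom also called 0. ERBB4, a neuregulin receptor gene, held 8 of 24, TRPM3, a cation channel gene, 7 of 33, and the glutamate receptor gene GRM8 5 of 27. ALK, the receptor tyrosine kinase mutated in some neuroblastomas, held 3 of 23, while RYR2, a calcium release channel gene, held 0 of 30 with a median of 0.00. Genes at common fragile sites had 72 of 514 regions higher (14.0%, 40 without ASO2 replicate 2) and 3 lower (0 or 1 without NCA replicate 1 or ASO2 replicate 1 or 3), in 17 of 18 genes tested. The share higher under ASO2 was 12% for all distal regions inside gene spans and 4.79% for all tested regions, and the difference was not tested. MACROD2 (17 of 99) and NAALADL2 (12 of 39), named above because of these same calls, are on this list. Besides MACROD2 and NAALADL2, PDE4D, a phosphodiesterase gene, held 7 of 40. MAGI2 and RORA held 0 of 15 and 0 of 14. Under ASO10 5 of the 328 receptor and channel regions were higher (1.52%, 1 to 3 regions without any 1 NCA library or ASO10 replicate 1 or 3). Of the 514 fragile site regions 5 were (0.973%, 2 regions without NCA replicate 2 and 3 without ASO10 replicate 3). These shares stood beside 1.625% of distal regions inside gene spans and 0.876% of all tested regions. Host genes on no list had 253 of 2312 higher (10.9%), and 7 genes stood on more than 1 of the lists.

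Intervals beside developmental transcription factor genes had a share of gains of 8.77%, beside 10.2% for all distal regions outside gene spans, and this difference was not tested. Of 76 such genes, 43 flanked a tested distal region, and 86 of 981 regions were higher under ASO2 (48 without ASO2 replicate 2) and 13 lower (1.33%). The share lower was 0.664% for distal regions outside gene spans and 0.808% for all tested regions. The list includes the 53 regions of the amplified stretch next to MYCN, with 1 of the gains and 4 of the losses. Without NCA replicates 1 and 2 and ASO2 replicates 1 and 2 in turn, 8, 6, 3 and 7 were lower. ZIC1 had 10 of 51, SOX9 8 of 81, ZFHX4 7 of 22, NR2F1 7 of 34 and NFIB 4 of 6. Of the adrenergic circuit, GATA3 had 4 of 18, ISL1 4 of 26 and HAND2 3 of 18, with median log2 fold changes of 0.38, 0.34 and 0.31. SOX11, also among the adrenergic markers used here, had 1 of 68, with a median of -0.03. BCL11B and MECOM had 0 of 41 and 0 of 25, with medians of -0.15 and -0.10. Under ASO10 10 of the 981 were higher (1.02%) and 1 lower, or 9 lower with loess offsets. The share higher under ASO10 was 1.65% for distal regions outside gene spans and 0.876% for all tested regions. Without NCA replicate 1 or 2 or any 1 ASO10 library, 4 to 6 of the 981 were higher.

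Losses were few and clear in single regions. The distal loss with the smallest p outside the amplified stretch lay at chr6:86609541-86610464, between SYNCRIP, an RNA-binding protein gene, and HTR1E, a serotonin receptor gene. It had 25.1, 20.8 and 25.8 CPM under NCA, 7.30, 13.0 and 10.9 CPM under ASO2 and 9.5, 10.1 and 7.94 CPM under ASO10. It fell under both ASOs (-1.18 ± 0.17, edgeR adjusted p = 7.8e-10, and -1.37 ± 0.17, 2e-11), and their libraries overlapped. TENM4, a teneurin gene, lost a region at chr11:78981079-78982900 under ASO2, with 33.0, 28.7 and 30.7 CPM under NCA, 14.6, 15.6 and 15.5 CPM under ASO2 and 23, 22.8 and 21.6 CPM under ASO10. The difference from NCA was -1.01 ± 0.14 (edgeR adjusted p = 1.4e-09), and the difference between the ASOs (-0.56 ± 0.15, 0.00945) was not called without ASO2 replicate 1, ASO10 replicate 1 or ASO10 replicate 2. Of 39 tested TENM4 regions 3 were lower under ASO2. In GPC5 a region at chr13:91620508-91621639 fell under both ASOs, from 15.8 ± 2.72 CPM (SD, n = 3) to 6.97 ± 2.11 under ASO2 and 7.21 ± 1.09 under ASO10. The region at chr11:128235692-128236579, between KIRREL3 and ETS1, was lower under ASO10, with 8.58 ± 0.474 CPM against 16.4 ± 1.37 under NCA and 15.5 ± 0.916 under ASO2.

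In the amplified stretch next to MYCN, 4 of 53 distal regions were lower and 1 higher under ASO2, with a median log2 fold change of -0.17. With loess offsets 1 was lower and 1 higher, with a median of -0.03, and the number lower was 11 without ASO2 replicate 3, 1 without ASO2 replicate 1, and 2 without NCA replicate 1 or 2 or any 1 ASO10 library. Between the ASOs the median was -0.15, which turned to 0.13 with loess offsets. The loss with the smallest p, at chr2:16197622-16199061, had 2703, 2537 and 2779 CPM under NCA, 1776, 1864 and 1766 CPM under ASO2 and 2491, 2466 and 2482 CPM under ASO10. ASO2 lay below both other groups (-0.57 ± 0.07 against NCA, edgeR adjusted p = 3.6e-13). The difference between the ASOs (-0.46 ± 0.07) was not called with loess offsets (adjusted p = 0.104). A near neighbour, the region over the promoter of LOC124908049, chr2:16201535-16202551, moved the other way, with 2306, 2160 and 2416 CPM under NCA, 2712, 2915 and 2758 CPM under ASO2 and 2848, 2785 and 2929 CPM under ASO10. All 6 ASO libraries lay above NCA there (0.29 ± 0.07 for ASO2 and 0.32 ± 0.07 for ASO10, edgeR adjusted p = 0.00117 and 0.00155), though the ASO10 call was lost by limma-voom and without ASO10 replicate 3 (adjusted p up to 0.0711). The number of copies of the locus in each library was not measured.

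The interval on chromosome 21 between LOC102723475 and LOC101927345, which holds rRNA genes, differed from the other named loci. Of its 94 tested regions, 1 was higher under ASO2, 10 were higher under ASO10, and 15 were lower under ASO2 than under ASO10. Such calls were not particular to it. Of 433 other autosomal regions above 6 log2 CPM, 10.4% were higher under ASO10. Between the ASOs, 9.93% of the 433 were lower under ASO2 and 2.54% higher. The 45S rRNA genes encode the precursor of the 18S, 5.8S and 28S RNAs of the ribosome and are present in many near-identical copies, so reads cannot be assigned to 1 copy and these values are uncertain per region. Of 14 regions that overlapped an rRNA gene or pseudogene, 8 were higher under ASO10 and 12 were lower under ASO2 than under ASO10. Among the 14, chr21:8254043-8255347 overlapped only the pseudogene RNA18SP5 and chr21:8256202-8257036 only RNA5-8SP10. The former was among the 12 calls between the ASOs (edgeR adjusted p = 0.0104), and the latter was not (0.11). Their summed level was 4123, 4131 and 4118 CPM under NCA, 3855, 4131 and 3491 CPM under ASO2, and 5172, 5078 and 5201 CPM under ASO10. The ASO10 libraries lay above all others, while ASO2 replicate 2 reached the NCA level. In edgeR 0 of the 14 differed between ASO2 and NCA, with 2 lower at an unadjusted p under 0.05, 2 lower by DESeq2 and 3 lower by limma-voom. The median log2 fold changes were -0.09 for ASO2, 0.32 for ASO10 and -0.42 between them.

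The ASO10 calls in the rRNA genes depended on the setting. With loess offsets 0 of the 14 were higher under ASO10 and 2 were lower under ASO2 than under ASO10, with medians of 0.17 and -0.16. The 8 calls under ASO10 numbered 1, 5 and 4 without NCA replicates 1, 2 and 3, and 2, 5 and 0 without ASO10 replicates 1, 2 and 3. The 12 calls between the ASOs numbered 10 to 13 whichever library was left out. The region with the smallest p under ASO10, chr21:8216564-8220087, had 476, 446 and 469 CPM under NCA, 447, 466 and 416 CPM under ASO2, and 600, 587 and 598 CPM under ASO10 (0.36 ± 0.08 for ASO10, edgeR adjusted p = 0.00275). The 24 other regions of the stretch had a median of 0.07 under ASO10, which was -0.08 with loess offsets. The 2 regions over MIR6724 hairpins were lower under ASO2 than under ASO10, by -0.47 ± 0.08 and -0.48 ± 0.08 (edgeR adjusted p = 7.2e-06 and 3.4e-06), and the first was not called with loess offsets (0.0654).

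**Figure D5:**
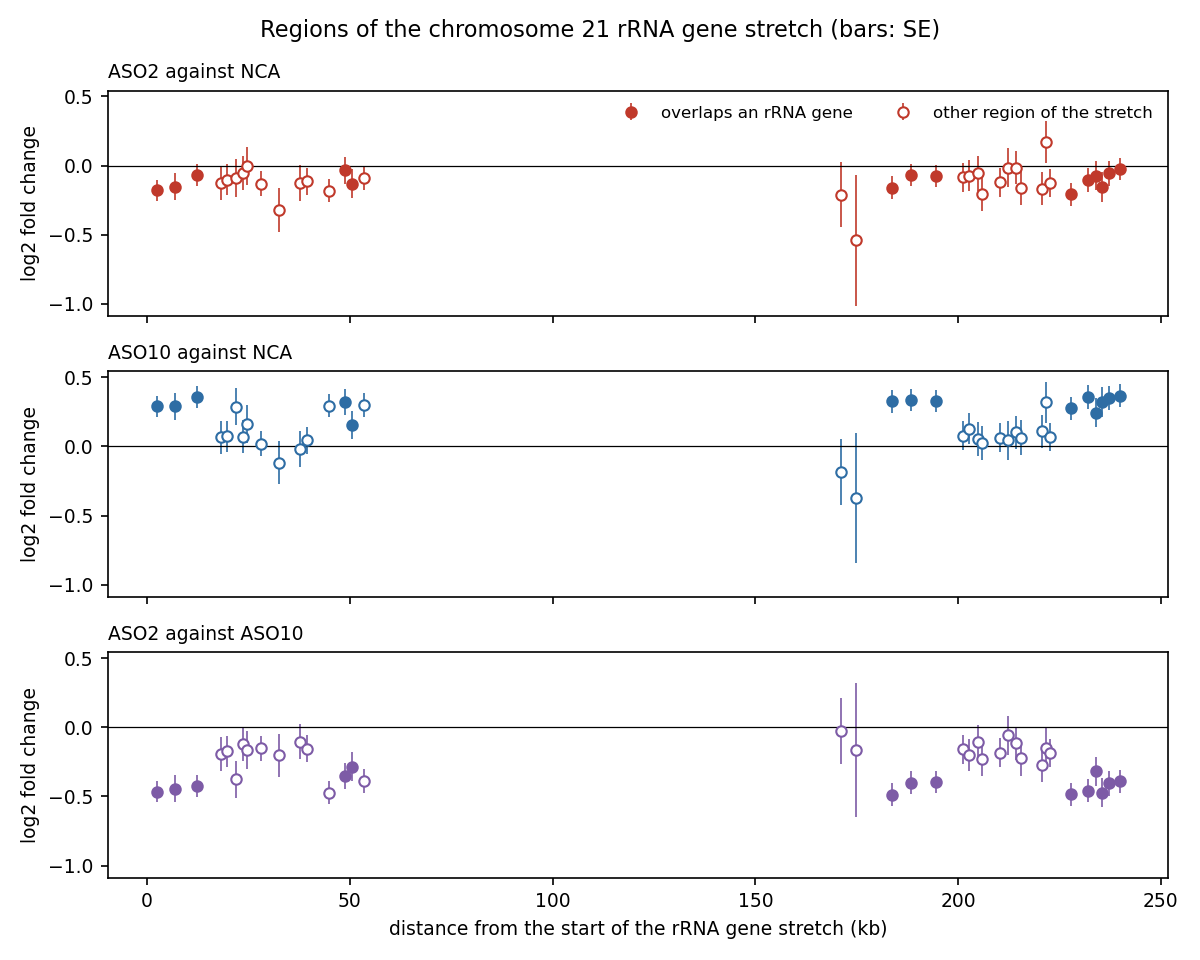
Log2 fold change (y axis, with SE bars) of the 38 regions of the chromosome 21 rRNA gene stretch against distance from its start (kb, x axis), for ASO2 against NCA, ASO10 against NCA and ASO2 against ASO10. Filled points overlap an rRNA gene or pseudogene, and their medians are -0.09, 0.32 and -0.42 from top to bottom.

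Some distal regions lay over a promoter. Of the 179 tested distal regions over a promoter, 9 were higher under ASO2 (5.03%, near the 4.79% of all tested regions and beside 10.7% of the distal ones) and 1 lower, with a median log2 fold change of 0.01. LINC01701, a long non-coding RNA gene, had 4.90, 5.30 and 6.81 CPM under NCA, 12.5, 11.5 and 10.6 CPM under ASO2 and 7.15, 8.08 and 9.25 CPM under ASO10, with no overlap of the groups (1.01 ± 0.22 for ASO2, edgeR adjusted p = 0.00033). PCGEM1, a long non-coding RNA described in prostate, had 11, 14.5 and 16.1 CPM under NCA, 19.6, 22.3 and 19.2 CPM under ASO2 and 20.2, 18.5 and 17.3 CPM under ASO10 (0.55 ± 0.16 for ASO2, adjusted p = 0.0123). The largest change was at LOC101929551, with 3.48, 3.03 and 1.82 CPM under NCA, 4.49, 9.34 and 6.42 CPM under ASO2 and 2.58, 3.64 and 3.13 CPM under ASO10 (1.30 ± 0.32, adjusted p = 0.00202). All ASO2 libraries lay above the other 6 there. CAMTA1-AS2 was lower under ASO2, at 7.68 ± 1.74 CPM against 12 ± 1.76 CPM (SD, n = 3) under NCA, and the TENM3 start was higher under ASO10, at 28.3 ± 1.51 against 19.0 ± 1.97 CPM. Of these 5 promoter calls, 4 were lost when 1 library was left out. That of PCGEM1 was lost without NCA replicate 1 or ASO2 replicate 2 (edgeR adjusted p up to 0.228), and that of LOC101929551 without NCA replicate 3 or ASO2 replicate 2 (up to 0.15). The CAMTA1-AS2 call was lost by DESeq2 and without NCA replicate 1 or 3 or ASO2 replicate 2 or 3 (adjusted p up to 0.167), and the TENM3 call without NCA replicate 2 or ASO10 replicate 1 or 2 (edgeR adjusted p up to 0.145). The LINC01701 call held without any 1 of the 9 libraries.

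Distal regions were also split by whether they lay in a long non-coding RNA gene. Of the tested distal regions, 3483 (21.7%) lay within the span of a long non-coding RNA gene, and 10.6% of these were higher under ASO2, against 10.7% of the rest. Inside gene spans the shares were 8.08% of 260 regions and 12.3% of the rest, and outside 10.8% and 10.0%. Under ASO10 the shares of all distal regions were 2.07% and 1.53%. These differences were not tested. The region over the miR-4490 hairpin, chr11:90554433-90555967, rose under ASO2, with 12.4, 11.2 and 13.3 CPM under NCA, 21.9, 21.1 and 17.8 CPM under ASO2 and 16.7, 14.3 and 16.9 CPM under ASO10. The difference was 0.71 ± 0.16 (edgeR adjusted p = 0.000605), with ASO10 between the other groups and not called (0.37 ± 0.17, 0.359). Accessibility of the hairpin's region is not a measure of the microRNA.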

How the data were processed

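ATAC-seq was read in 9 libraries, 3 each with NCA, ASO2 and ASO10. The deposited table holds counts of reads per region for each library, not normalized, with region names that give the coordinates. Per the submitters' processing notes, the authors used FastQC, Bowtie2 2.2.6, SAMtools, MACS2 2.1.2 and DESeq2 1.42.0 with build hg38 (GRCh38), and the settings are not given in the sources used here. Per the labels' protocols, genomic DNA was tagmented and sequenced in pairs.

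Here, regions were kept with edgeR's filterByExpr by group (119417 of 148797), scaled by TMM, fitted together over all 9 libraries with robust quasi-likelihood (edgeR 4.0.16 in R 4.3.3; common coefficient of variation 23.5%), and compared in 3 contrasts with Benjamini-Hochberg adjustment at 0.05. CPM uses the TMM-scaled library sizes. Alternatives were DESeq2 1.42.0, limma-voom 3.58.1, other scalings and filters, a replicate block, other distance rules and leaving out each library. Leaving out high-count, amplified and rRNA regions was chosen after seeing the data. No pair of libraries of a group agreed within sampling noise. Python 3.11.15 with pandas 2.3.3 joined the tables, and matplotlib 3.10.9 drew the plots.

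Distances, host genes, promoters and microRNAs came from RefSeq's GRCh38.p14 tables. A locus is the longest host gene, or the interval between neighbouring protein-coding genes. Named loci were the 6 host genes and 6 intervals with most ASO2 gains and the 3 of each with most ASO10 gains. Named regions were, per contrast and place, the 3 gains and 2 losses with the smallest p, the leading region of each named locus, and those nearest the distance bounds. Promoters, microRNAs and the region with opposite calls were chosen after their values were seen. The distance range and the gene lists were chosen with earlier results of these data known. No genome sequence was used here, so exons, introns and the sequences of the regions were not analysed.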

Additional observations from a re-analysis of the deposited data

Results flagged for a closer look

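Results in which the ASOs differed by the direct test (edgeR's quasi-likelihood test of ASO2 against ASO10) are given here as values. With ASO2, 764 distal regions were higher than with ASO10 and 47 were lower. Of the 14 regions over rRNA genes or pseudogenes, 12 were lower under ASO2 than under ASO10, and 2 were with loess offsets. One distal region was called in opposite directions against NCA, at chr5:84774601-84775241 between EDIL3, a gene of a secreted integrin ligand, and COX7C, a respiratory chain gene. It had 3.09, 4.54 and 4.20 CPM under NCA, 7.30, 8.69 and 8.26 CPM under ASO2 and 1.06, 1.71 and 2.34 CPM under ASO10, so that the groups did not overlap. ASO2 raised it by 1.03 ± 0.29 on the log2 scale (edgeR adjusted p = 0.0114), under ASO10 it was lower by -1.22 ± 0.35 (0.0455), and the ASOs differed by 2.25 ± 0.33 (1.1e-08). The loss under ASO10 was not called under 13 alternatives, among them loess offsets, limma-voom and leaving out any 1 library except ASO10 replicate 3 (adjusted p up to 0.354). The gain under ASO2 was not called without NCA replicate 1 or ASO2 replicate 2 or 3 (edgeR adjusted p up to 0.109). The difference between the ASOs was called under each alternative that could be run for it.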

How the results depend on the processing

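Of 3131 combinations of 146 results with an alternative, 2696 kept their side of the threshold or stayed within 1.5 times (or 1 SD). In the rest, 182 were calls of single regions lost under an alternative and 253 shares or counts moved. Of the 2214 combinations for single regions, 0 reversed in direction. Shares and counts have no direction that could reverse. Some group medians changed sign, such as that of all tested distal regions under ASO10, 0.02 and -0.01 with total-count scaling. Of the 1709, 264 and 764 gains, DESeq2 also called 1372, 211 and 540, limma-voom 1446, 175 and 667, and the fit with loess offsets 1565, 214 and 597. Shares that moved by over 1.5 times follow as percents of the tested distal regions. With total-count scaling, 0.475% inside genes were lower for ASO10 against NCA. With loess offsets, 1.23% inside genes were lower for ASO2 against NCA, 0.393% of all, 0.450% inside genes and 0.374% outside genes were lower for ASO10 against NCA, 0.25% inside genes were lower for ASO2 against ASO10. With no filter, 0.425% of all, 0.493% inside genes and 0.403% outside genes were lower for ASO2 against NCA, 1.07% of all, 1.08% inside genes and 1.06% outside genes were higher for ASO10 against NCA, 0.111% of all, 0.171% inside genes and 0.0916% outside genes were lower for ASO10 against NCA, 3.13% of all and 3.0% outside genes were higher for ASO2 against ASO10, 0.176% of all, 0.0759% inside genes and 0.208% outside genes were lower for ASO2 against ASO10. With at least 10 counts in every library, 18.9% of all, 20.1% inside genes and 18.4% outside genes were higher for ASO2 against NCA, 1.85% of all, 2.43% inside genes and 1.64% outside genes were lower for ASO2 against NCA, 3.90% of all, 3.67% inside genes and 3.98% outside genes were higher for ASO10 against NCA, 1.02% of all, 1.19% inside genes and 0.960% outside genes were lower for ASO10 against NCA, 10.4% of all, 10.9% inside genes and 10.2% outside genes were higher for ASO2 against ASO10, 0.851% of all, 0.546% inside genes and 0.960% outside genes were lower for ASO2 against ASO10. By limma-voom, 1.02% inside genes were higher for ASO10 against NCA, 0.517% of all and 0.656% outside genes were lower for ASO2 against ASO10. With a log2 fold change over 1 also required, 6.79% of all, 7.53% inside genes and 6.55% outside genes were higher for ASO2 against NCA, 0.337% of all, 0.425% inside genes and 0.307% outside genes were lower for ASO2 against NCA, 0.492% of all, 0.550% inside genes and 0.473% outside genes were higher for ASO10 against NCA, 0.0623% of all, 0.150% inside genes and 0.0332% outside genes were lower for ASO10 against NCA, 2.90% of all, 3.27% inside genes and 2.78% outside genes were higher for ASO2 against ASO10, 0.0748% of all, 0.0250% inside genes and 0.0913% outside genes were lower for ASO2 against ASO10. In a fit of only those groups, 0.563% of all, 0.339% inside genes and 0.639% outside genes were lower for ASO2 against ASO10. With distance also taken to long non-coding genes, 0.12% of all and 0.0888% inside genes were lower for ASO10 against NCA, 0% inside genes were lower for ASO2 against ASO10. Without the high-count, amplified and rRNA regions, 0.189% of all and 0.210% outside genes were lower for ASO2 against ASO10. With distance taken to long non-coding genes too, the 10 leading loci held 21.1% of the ASO2 gains. The filters and the fold threshold change which regions are counted by construction, and for the other settings the cause was not tested. Mean shares of counts (NCA, ASO2, ASO10) were 1.77%, 2.07% and 1.81% inside and 14.0%, 14.0% and 14.1% outside genes of autosomal counts, 1.13%, 1.33% and 1.15% and 9.53%, 9.68% and 9.77% at 250 to 900 kb, and outside genes 8.97%, 9.53% and 9.22% without the amplified stretch and 4.94%, 5.62% and 4.99% without all high-count stretches.

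With 1 library left out, the range was for ASO2 against NCA, higher, 5.93 to 9.45% over all, 6.56 to 10.7% inside genes and 5.73 to 9.04% outside genes. For ASO2 against NCA, lower, 0.360 to 0.580% over all, 0.387 to 0.684% inside genes and 0.332 to 0.549% outside genes. For ASO10 against NCA, higher, 0.547 to 1.49% over all, 0.519 to 1.6% inside genes and 0.557 to 1.45% outside genes. For ASO10 against NCA, lower, 0.0614 to 0.210% over all, 0.0902 to 0.299% inside genes and 0.0520 to 0.181% outside genes. For ASO2 against ASO10, higher, 2.17 to 4.46% over all, 2.33 to 4.99% inside genes and 2.09 to 4.29% outside genes. For ASO2 against ASO10, lower, 0.151 to 0.271% over all, 0.0221 to 0.112% inside genes and 0.186 to 0.330% outside genes. The 10 leading loci held 9.98 to 11.4% of the ASO2 gains. Mean shares of counts inside genes were 1.67 to 1.70% for NCA, 1.96 to 1.98% for ASO2 and 1.70 to 1.74% for ASO10, and outside 13.1 to 13.5% for NCA, 13.1 to 13.6% for ASO2 and 13.3 to 13.5% for ASO10.

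With the replicate number as a block, 1652, 222 and 705 distal regions (10.3%, 1.38% and 4.39%) were higher in the 3 comparisons. Libraries with the same number did not deviate together (r from -0.04 to 0.01), and 3 of 18 checks matched a library best with its own number, so the numbers were not taken as pairs. Depth limits the weak regions: under 1 log2 CPM, 1.54% of distal regions were called higher under ASO2, and 5606 distal regions were too shallow to test.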
